A study of Bos taurus and Ovis aries and Capra hircus with 18 samples.

Results

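Myeloid genes, 10 in all, were followed across adult brain and adult muscle of cattle, sheep and goat: CSF1R, CX3CR1, P2RY12, TMEM119, TREM2, AIF1, C1QA, C1QB, C1QC and CD163. These 10 genes were chosen by name as genes of microglia and macrophages, out of 27607 cattle gene models. The 14313 genes matched between the 3 species held all 10, because CX3CR1, P2RY12, TMEM119 and AIF1 were placed there by hand. In cattle each of the 10 was identified by its position. The sheep and goat partners were identified by exon lengths, strand and gene order, those of CX3CR1, P2RY12, TMEM119 and C1QC by strand and order alone. RNA had been extracted with TRIzol from frozen tissue, and mRNA had been captured with oligo(dT) beads before cDNA synthesis and sequencing. The 18 libraries formed 6 groups of 3, lettered A, B and C: cattle brain, sheep brain, goat brain, cattle muscle, sheep muscle and goat muscle. The labels give the tissue and the adult stage of each library and no brain region, named muscle, breed, sex or age. They do not say that letters are separate animals, so p-values measure only the spread between these samples, which may be technical.

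Microglia are the resident macrophages of the brain. They take up debris and complement-tagged synapses and are maintained by signalling through CSF1R, the receptor for the growth factors CSF1 and IL34. CX3CR1 receives the neuronal chemokine CX3CL1, P2RY12 is a purine receptor that directs microglial processes to sites of ATP release, TMEM119 is a membrane protein used as a microglial marker in mouse and human, and TREM2 is a lipid receptor that signals through TYROBP. AIF1, also called IBA1, is an actin-binding protein of all macrophages, and C1QA, C1QB and C1QC encode the chains of C1q, which starts the classical complement pathway. CD163, the scavenger receptor for haemoglobin-haptoglobin complexes, marks tissue macrophages outside the brain parenchyma, including those of skeletal muscle. The first 5 genes are here called microglia-leaning and CD163 muscle macrophage-leaning.

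Library totals ran between 20730803 and 58514630 counts assigned to genes. The tissue labels held: of the marker genes matched in the 3 species, 6 of 6 for neurons, 6 of 6 for astrocytes and 7 of 7 for oligodendrocytes were higher in brain, and 8 of 8 for muscle fibres were lower. Sheep brain C stood apart from its group, with a mean Spearman correlation of 0.833 to the other sheep brain libraries, against 0.910 and 0.912 for sheep brain A and B. Goat muscle C reached 0.948 within its own group, and the remaining libraries reached 0.967 to 0.989. Levels below are in RPKM, reads per kilobase of each species' own gene model, scaled for library depth (TMM) over the matched genes. A gene was called where edgeR's quasi-likelihood test gave a Benjamini-Hochberg adjusted p under 0.05 over all genes tested and the log2 difference was at least 1 in size.

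All 10 genes passed the filter on low counts and were tested in every comparison. Over the 3 species in one fit, 8 of the 10 were higher in brain, 1 (CD163) was lower, and C1QA was not called. With library totals alone C1QA was called too (1.30, edgeR adjusted p = 0.00148, range over the alternatives 0.00148 to 0.745), and without sheep muscle A the C1QC value was 0.96 and not called. Of all 12959 genes tested in that fit, 31.1% were called higher and 23.3% lower. In sheep 9 were higher and 1 lower, against 28.5% and 19.2% of all sheep genes. In cattle 6 were higher and 1 lower, against 33.9% and 25.3% of all cattle genes. In goat 5 were higher and 1 lower, against 31.4% and 23.2% of all goat genes. The median log2 difference of the 10 genes in the fit over the 3 species was 2.47, beside 0.07 over all genes. In whole tissue, fewer cells of a type and less RNA per cell cannot be told apart. When libraries were scaled by their totals alone, the median over all genes moved to 1.05 in the fit over the 3 species and 84.1% of the calls lay on the brain side, against 57.2% with TMM scaling. Within species that share was 75.9%, 83.4% and 77.8% in cattle, sheep and goat with totals alone, against 57.3%, 59.8% and 57.5% with TMM scaling.

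**Figure D1:**
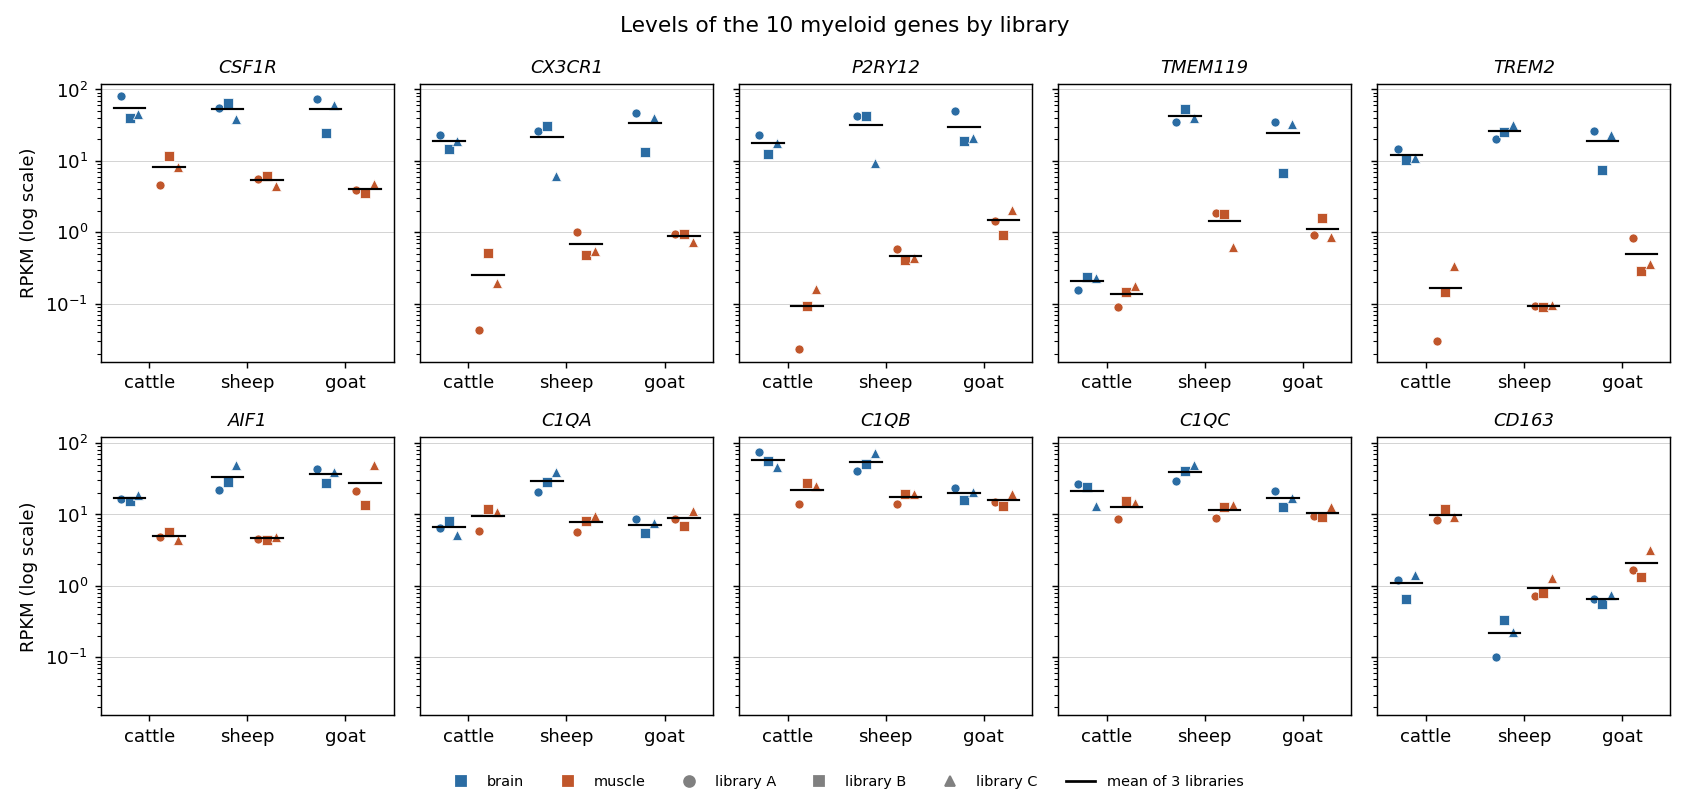
RPKM on a log scale of each of the 10 genes in the 18 libraries, with brain (blue) left of muscle (orange) in each species; symbols are libraries A, B and C and the bar is the mean of 3. CSF1R, CX3CR1, P2RY12 and TREM2 lie higher in every brain library than in any muscle library of the same species, TMEM119 does so in sheep and goat, and CD163 lies lower in every brain library.

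CSF1R, the growth factor receptor that all macrophages carry, had similar mean levels in the brains of the 3 species, between 52.9 and 55.5 RPKM. In cattle the model ENSBTAG00000012771 lies on the minus strand of chromosome 7, 61380054 to 61411558 (ARS-UCD1.2). CSF1R measured 80.3, 40.1 and 45.9 RPKM in cattle brain, against 4.62, 11.5 and 8.18 RPKM in cattle muscle. Sheep CSF1R was at 55.4, 64.3 and 38.9 RPKM in brain, against 5.51, 6.08 and 4.47 RPKM in muscle. Goat CSF1R was at 74.3, 24.8 and 61.6 RPKM in brain, against 3.97, 3.55 and 4.74 RPKM in muscle. Every brain library lay above every muscle library, goat brain B being the lowest of the brain libraries. The log2 difference of brain over muscle was 3.26 ± 0.26 (SE) over the 3 species (edgeR, adjusted p = 1.5e-09). In edgeR's joint test CSF1R showed no species dependence of that difference that passed the threshold (adjusted p = 0.384), the species' own log2 values being 2.87 in cattle, 3.31 in sheep and 3.74 in goat. CSF1R was still well measured in muscle, with 191 to 1040 counts in each muscle library.

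CX3CR1, the receptor of the neuronal chemokine CX3CL1, was high in brain and low in muscle. Its cattle model lies on the minus strand of chromosome 22, 12569452 to 12583576. CX3CR1 measured 23.4, 14.5 and 19.3 RPKM in cattle brain, against 0.043, 0.520 and 0.198 RPKM in cattle muscle, where its counts were 3, 45 and 16. Sheep CX3CR1 was at 26.5, 31.3 and 6.19 RPKM in brain, against 1.02, 0.474 and 0.540 RPKM in muscle. Goat CX3CR1 was at 47.6, 13.5 and 39.5 RPKM in brain, against 0.940, 0.944 and 0.737 RPKM in muscle. The tissues did not overlap in any species, and sheep brain C and goat brain B were the low libraries of their groups. The log2 difference over the 3 species was 5.48 ± 0.45 (SE, edgeR, adjusted p = 2.75e-09). By species it was 6.28 in cattle, 4.98 in sheep and 5.27 in goat, and the joint test of a dependence on species did not pass the threshold (edgeR, adjusted p = 0.525).

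P2RY12, the purine receptor, was higher in brain in each species. Its cattle model lies on the plus strand of chromosome 1, 116694941 to 116747192, within the span of another gene model with which it shares no exonic base. P2RY12 measured 23.1, 12.5 and 17.7 RPKM in cattle brain, against 0.0231, 0.0932 and 0.159 RPKM in cattle muscle, where its counts were 1, 5 and 8. Sheep P2RY12 was at 42.5, 42.7 and 9.34 RPKM in brain, against 0.580, 0.404 and 0.431 RPKM in muscle. Goat P2RY12 was at 50.2, 19.0 and 20.7 RPKM in brain, against 1.46, 0.925 and 2.03 RPKM in muscle. Brain and muscle were far apart in each species. The 3 muscle groups did not overlap one another, goat being highest and cattle lowest. No muscle library held more than 32 counts, so nothing is read from that order. The log2 difference was 7.63 ± 0.45 in cattle, 6.06 ± 0.73 in sheep and 4.38 ± 0.50 in goat (SE, edgeR, adjusted p = 1.35e-06, 0.000766 and 7.88e-05). P2RY12 was among the 4 members called for a dependence of that difference on the species (edgeR joint test, adjusted p = 0.0332), a call made for 25.5% of all genes tested. The folds compared rest on the few muscle counts, so no species difference in fold is read from that call. That call was lost in 9 of the 26 alternatives tried, among which the adjusted p ran between 0.00226 and 0.137: with limma-voom, and without cattle brain A or C, goat brain B or C, cattle muscle A or B, or goat muscle A or C. The summed counts were 4726 in cattle brain and 14 in cattle muscle, and their ratio after scaling for depth was 192, with a 95% interval for counting error only of 115 to 352.

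TREM2, the lipid-sensing receptor, had the largest fitted difference of the 10 genes over the 3 species. Its cattle model lies on the minus strand of chromosome 23, 15082501 to 15105534, and its overlap with the RefSeq gene was 0.201 of the union of both spans. TREM2 measured 14.6, 10.3 and 11.04 RPKM in cattle brain, against 0.0297, 0.144 and 0.332 RPKM in cattle muscle. Sheep TREM2 was at 20.6, 25.7 and 31.9 RPKM in brain, against 0.0928, 0.0895 and 0.0955 RPKM in muscle, where each library held 2 counts. Goat TREM2 was at 26.1, 7.55 and 23.1 RPKM in brain, against 0.824, 0.289 and 0.357 RPKM in muscle. TREM2 was low in every muscle library, the highest holding 19 counts, and it entered the tests through its brain counts. The log2 difference over the 3 species was 6.28 ± 0.47 (SE, edgeR, adjusted p = 6.12e-10). In sheep the summed counts were 2074 in brain and 6 in muscle, a ratio of 280 after scaling for depth, with a 95% counting interval of 129 to 765. The joint test of a dependence on species gave an adjusted p of 0.0692 (edgeR) and was not called, but it was called with DESeq2 (adjusted p = 0.0141), with library totals alone (0.0482) and without cattle muscle A (0.0424), the range over the alternatives being 0.0141 to 0.154.

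TMEM119, the microglial membrane protein, was high in sheep and goat brain and close to its muscle level in cattle brain. TMEM119 over CSF1R was 0.808 in sheep brain and 0.412 in goat brain, and 0.00383 in cattle brain (geometric means of 3 libraries). TMEM119 measured 0.157, 0.235 and 0.226 RPKM in cattle brain, against 0.0907, 0.146 and 0.176 RPKM in cattle muscle, from 16, 18 and 19 counts in brain and 4, 8 and 9 counts in muscle. Sheep TMEM119 was at 34.7, 53.1 and 39.7 RPKM in brain, against 1.86, 1.79 and 0.625 RPKM in muscle. Goat TMEM119 was at 35.4, 6.87 and 32.6 RPKM in brain, against 0.921, 1.56 and 0.851 RPKM in muscle. Brain and muscle overlapped in cattle and were separate in sheep and goat. The log2 difference was 0.66 ± 0.45 in cattle, which was not called, 4.89 ± 0.53 in sheep and 4.49 ± 0.65 in goat (SE, edgeR, adjusted p = 0.216, 0.00051 and 0.000315). With library totals alone the cattle value was 1.33 and called (edgeR, adjusted p = 0.0301, range over the alternatives 0.0301 to 0.46). The dependence on species passed the threshold (edgeR joint test, adjusted p = 0.00333) and stayed below it in all 26 alternatives. The model on the plus strand of cattle chromosome 17, 64327826 to 64334251, is 2313 exonic bases long and was taken as TMEM119 because it overlapped the RefSeq gene most, by 0.440 of the union. The sheep and goat models, placed by gene order with a single matched neighbour each, are 873 and 855 bases long. Whether reads of cattle TMEM119 fall outside the listed exons was not tested.

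AIF1, the actin-binding protein known as IBA1, was higher in brain in cattle and sheep and overlapped between the tissues in goat. Its cattle model lies on the minus strand of chromosome 23, 27685449 to 27687723, and overlapped the RefSeq gene by 0.120 of the union. Its sheep and goat partners shared 5 and 4 exon lengths with it. AIF1 measured 16.6, 15.3 and 18.8 RPKM in cattle brain, against 4.83, 5.68 and 4.36 RPKM in cattle muscle. Sheep AIF1 was at 22.4, 28.7 and 49.5 RPKM in brain, against 4.61, 4.39 and 4.90 RPKM in muscle. Goat AIF1 was at 43.3, 27.4 and 39.0 RPKM in brain, against 21.3, 13.5 and 49.2 RPKM in muscle. Goat muscle C was above every goat brain library, and it was also high for CD163. The log2 difference was 1.87 ± 0.22 in cattle and 2.85 ± 0.40 in sheep, both called, and 0.43 ± 0.45 in goat, not called (SE, edgeR, adjusted p = 7.82e-05, 0.00141 and 0.43). Without goat muscle C the goat value was 1.06 and was called (edgeR, adjusted p = 0.0176), and with library totals alone it was 1.22 and called (adjusted p = 0.032), the adjusted p running between 0.0176 and 0.991 over the alternatives. The dependence on species passed the threshold (edgeR joint test, adjusted p = 0.0128) and did so in all 26 alternatives.

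The 3 chains of C1q are encoded side by side on cattle chromosome 2, between 130166509 and 130193588, all on the minus strand, in the order C1QB, C1QC, C1QA. In sheep all 3 chains were higher in brain. In cattle 1 of the 3 was called higher, and in goat none of the 3 was called. C1QA had an unadjusted p of 0.379 and C1QB of 0.186 in goat, and C1QC had 0.0292 with an adjusted p of 0.0481 at a log2 difference under 1 (edgeR). With library totals alone, C1QB and C1QC were called in goat and C1QC in cattle.

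C1QA, the A chain, measured 20.9, 28.6 and 39.8 RPKM in sheep brain, against 5.67, 8.07 and 9.60 RPKM in sheep muscle. Cattle C1QA was at 6.44, 8.11 and 5.19 RPKM in brain, against 5.96, 11.9 and 10.96 RPKM in muscle. Goat C1QA was at 8.55, 5.46 and 7.51 RPKM in brain, against 8.52, 6.91 and 11.1 RPKM in muscle. The tissues were separate in sheep and overlapped in cattle and goat. The log2 difference of C1QA was 1.94 ± 0.38 in sheep, −0.45 ± 0.29 in cattle and −0.27 ± 0.29 in goat (SE, edgeR, adjusted p = 0.00566, 0.19 and 0.445); with library totals alone the cattle and goat values were 0.22 and 0.49, neither called. C1QA had the lowest adjusted p of the 10 genes in the joint test of a dependence on species (edgeR, adjusted p = 0.00251) and was called in all 26 alternatives.

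C1QB, the B chain, measured 75.2, 55.6 and 45.8 RPKM in cattle brain, against 13.8, 27.4 and 25.2 RPKM in cattle muscle. Sheep C1QB was at 40.5, 50.7 and 73.3 RPKM in brain, against 14.1, 19.3 and 19.4 RPKM in muscle. Goat C1QB was at 23.8, 16.1 and 20.7 RPKM in brain, against 14.98, 13.1 and 19.7 RPKM in muscle. Only in goat did its brain and muscle libraries overlap, the joint test of a dependence on species giving an adjusted p of 0.0656 (edgeR, not called). That test was called in 5 of 26 alternatives, with RLE scaling, library totals alone and DESeq2 and without sheep brain A or sheep brain C, at adjusted p between 0.0156 and 0.15 over all of them. The log2 difference of C1QB was 1.51 ± 0.28 in cattle, 1.64 ± 0.34 in sheep and 0.38 ± 0.27 in goat (SE, edgeR, adjusted p = 0.00121, 0.00662 and 0.241).

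C1QC, the C chain, measured 26.4, 24.6 and 13.1 RPKM in cattle brain, against 8.62, 15.4 and 14.5 RPKM in cattle muscle. Sheep C1QC was at 29.0, 41.1 and 48.7 RPKM in brain, against 8.84, 12.6 and 13.8 RPKM in muscle. Goat C1QC was at 21.0, 12.8 and 16.9 RPKM in brain, against 9.61, 9.10 and 12.7 RPKM in muscle. Cattle brain C fell among the cattle muscle libraries, and without it the cattle log2 difference of 0.83 (edgeR, adjusted p = 0.039, not called) was 1.13 and called (adjusted p = 0.00531, range over the alternatives 0.00134 to 0.115). The value was 1.76 ± 0.34 in sheep (SE, edgeR, adjusted p = 0.00538).

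CD163, the haemoglobin scavenger receptor, was lower in brain in all 3 species. In cattle the model ENSBTAG00000019669 lies on the plus strand of chromosome 5, 101786078 to 101818046. CD163 measured 1.197, 0.653 and 1.41 RPKM in cattle brain, against 8.24, 11.97 and 9.30 RPKM in cattle muscle. Sheep CD163 was at 0.101, 0.335 and 0.228 RPKM in brain, against 0.722, 0.794 and 1.30 RPKM in muscle. Goat CD163 was at 0.657, 0.563 and 0.755 RPKM in brain, against 1.68, 1.32 and 3.23 RPKM in muscle. No brain library reached the lowest muscle library of its species, and cattle muscle lay above every other group. The log2 difference was −3.07 ± 0.31 in cattle, −2.07 ± 0.55 in sheep and −1.61 ± 0.39 in goat (SE, edgeR, adjusted p = 3.05e-05, 0.0185 and 0.00573). The sheep call was lost without sheep muscle C (−1.79, edgeR adjusted p = 0.072), and with library totals alone both the sheep value (−1.13, edgeR adjusted p = 0.121) and the goat value (−0.84, edgeR adjusted p = 0.0701) were not called. Over the alternatives the adjusted p ran between 0.000689 and 0.121 in sheep and between 0.000254 and 0.0701 in goat.

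**Figure D2:**
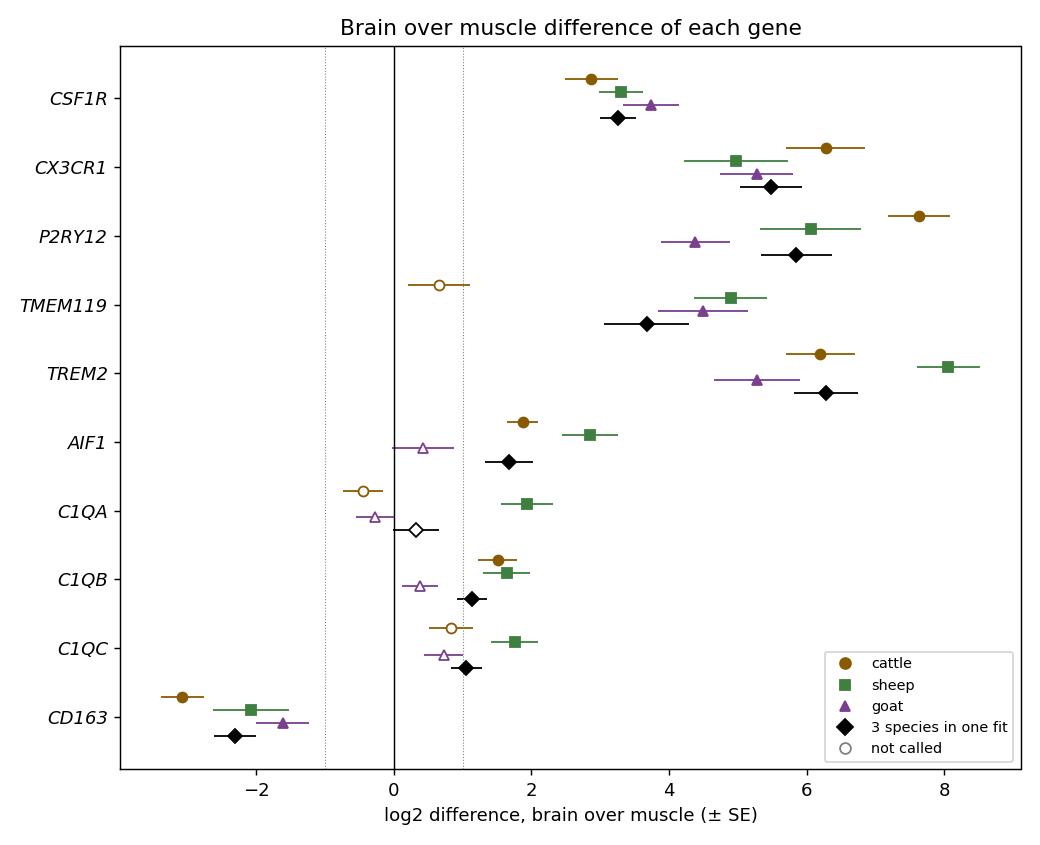
Log2 difference of brain over muscle with its standard error for each gene in cattle, sheep and goat and in one fit over the 3 species; open symbols are values that were not called, and dotted lines mark a log2 difference of 1 in either direction. The microglia-leaning genes lie between 2.87 and 8.06 apart from TMEM119 in cattle at 0.66, the C1q chains and AIF1 lie between −0.45 and 2.85, and CD163 lies at −1.61 or below in each species.

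The 10 genes' summed level was higher in every brain library than in any muscle library. The lowest brain library held 134 RPKM and the highest muscle library 104.6 RPKM. Its make-up is given as a description, because the genes were grouped with earlier results of these data known. CX3CR1, P2RY12 and TREM2 held few counts in muscle, so a higher brain share of their group was fixed in advance. The sum was 209 ± 50.4 RPKM in cattle brain, 332 ± 37.2 in sheep brain and 242 ± 99.96 in goat brain, against 68.1 ± 19.7 in cattle muscle, 50.7 ± 6.67 in sheep muscle and 73.3 ± 27.9 in goat muscle (SD, n = 3 each). The 5 microglia-leaning genes made up 49.5% ± 5.87, 52.7% ± 13.3 and 63.9% ± 9.15 of it in cattle, sheep and goat brain, against 12.5% ± 2.15, 16.2% ± 4.94 and 11.7% ± 3.04 in cattle, sheep and goat muscle (SD, n = 3 each). The lowest brain library, sheep brain C at 37.3%, was above the highest muscle library at 21.1%. CSF1R alone took 11.6%, 10.7% and 5.885% of the sum in cattle, sheep and goat muscle, against 25.9%, 16.0% and 21.5% in the same species' brains. The C1q chains made up the largest share of the muscle sums in each species. That share was 41.6% ± 6.42, 37.2% ± 9.32 and 19.7% ± 5.21 in cattle, sheep and goat brain, against 65.0% ± 3.84, 72.7% ± 5.62 and 49.98% ± 7.77 in cattle, sheep and goat muscle. CD163 took 14.9% ± 2.64 of the sum in cattle muscle, 1.83% ± 0.459 in sheep muscle and 2.76% ± 0.282 in goat muscle, and under 0.8% in every brain library. AIF1 took 35.5% ± 10.5 of the sum in goat muscle, where it was the leading gene.

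**Figure D3:**
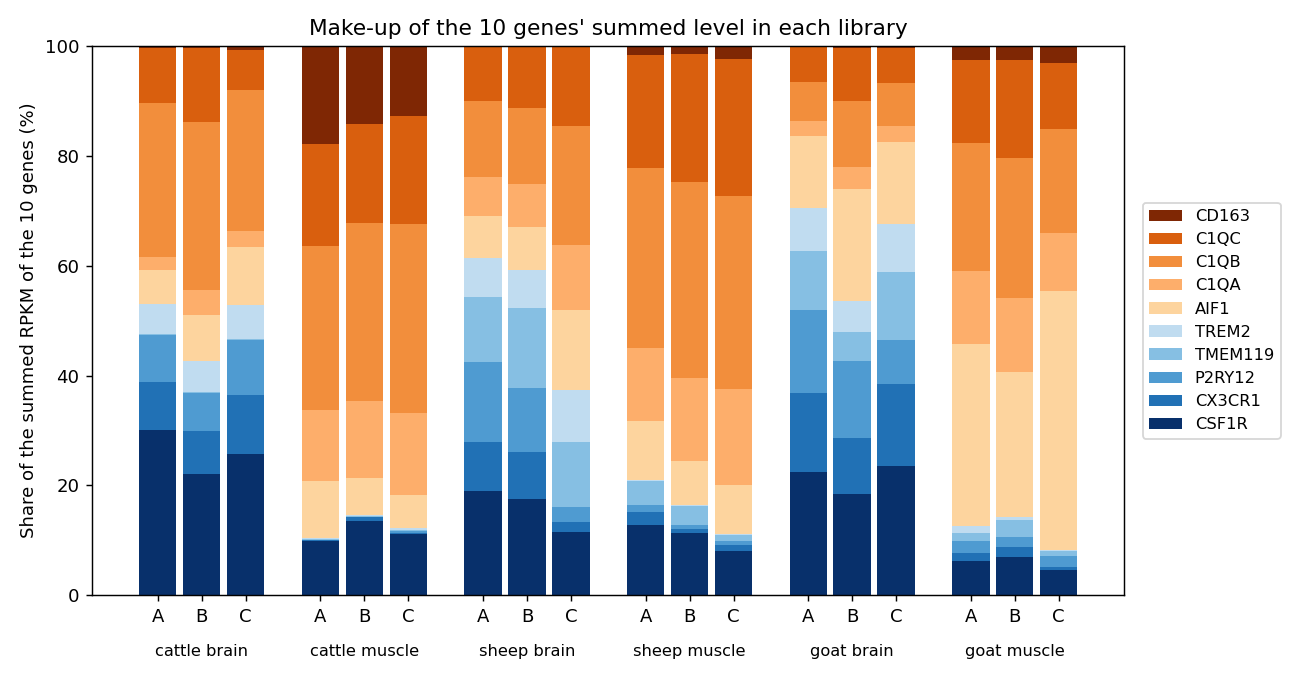
Share of the summed RPKM of the 10 genes taken by each gene in each library, in percent, with brain left of muscle in each species; blue shades are the 5 microglia-leaning genes and orange to brown shades are AIF1, the C1q chains and CD163. Blue shades fill 37.3% or more of each brain bar and at most 21.1% of each muscle bar, CD163 is visible mainly in cattle muscle, and AIF1 is widest in goat muscle.

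Ratios between 2 genes of the same library do not depend on how libraries were scaled. CSF1R over CD163 was 51.2 in cattle brain, 262 in sheep brain and 74.0 in goat brain, against 0.780 in cattle muscle, 5.87 in sheep muscle and 2.11 in goat muscle (geometric means of 3 libraries). In cattle muscle CD163 was above CSF1R per kilobase in all 3 libraries, which was so in no other group. The log2 ratios of CSF1R over CD163 there were −0.83, −0.05 and −0.19 in A, B and C. C1QA over C1QB was 0.112 in cattle brain, 0.541 in sheep brain and 0.354 in goat brain, against 0.434 in cattle muscle, 0.437 in sheep muscle and 0.554 in goat muscle. The 3 cattle brain libraries lay below every other library in this ratio, at log2 values between −3.54 and −2.78. C1QC over C1QB was lowest in cattle brain too, at 0.354, beside 0.586 in cattle muscle, and 0.6605 to 0.830 in the sheep and goat groups. Between 3 and 3 libraries an exact two-sided permutation test cannot give a p under 0.1, and no test of these ratios was run. Within cattle the brain and muscle ratios rest on the same gene models, while ratios of different species rest on models of different lengths.

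**Figure D4:**
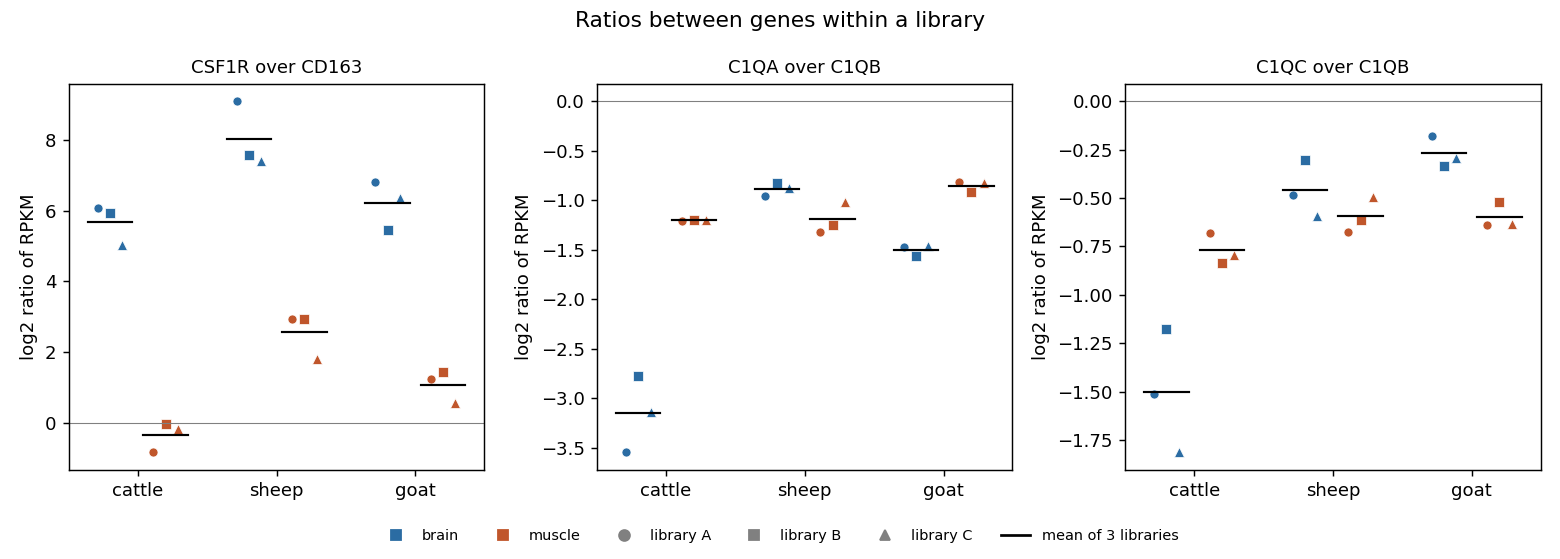
Log2 ratio of RPKM between 2 genes in each library for CSF1R over CD163, C1QA over C1QB and C1QC over C1QB, with brain left of muscle in each species, symbols for libraries A, B and C, and a bar at the mean of 3. CSF1R over CD163 is higher in every brain library than in any muscle library, and the cattle brain libraries are the lowest for both C1q ratios.

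The members also differed within groups. In sheep brain C, CX3CR1 and P2RY12 were the lowest of the 3 sheep brain libraries, while AIF1, TREM2 and all 3 C1q chains were the highest. CX3CR1 over CSF1R had a log2 ratio of −2.65 in sheep brain C, against −1.06 and −1.04 in A and B, and C1QB over CSF1R had 0.91, against −0.45 and −0.34. The summed level of 6 matched tissue macrophage markers other than CD163 was 14.5 RPKM in sheep brain C, against 4.97 and 5.53 RPKM in sheep brain A and B, and no marker of that list was at 0. IL34 was at 92.4 RPKM in sheep brain C, against 25.8 and 23.8 RPKM in A and B. Neuronal markers summed to 2265 RPKM in sheep brain C, against 2979 and 2449 RPKM in A and B. The part of these values in the sheep brain C pattern was not tested. In goat brain B, CSF1R, CX3CR1, TMEM119, TREM2, AIF1, C1QA, C1QB, C1QC, P2RY12 and CD163 were all the lowest of the goat brain libraries. The summed level of the 10 genes was 134 RPKM in goat brain B, against 331 and 262 RPKM in A and C. Neuronal markers summed to 2822 RPKM in goat brain B, against 1847 and 2125 RPKM in A and C, and oligodendrocyte markers to 36230 RPKM in goat brain A, against 5700 and 6281 RPKM in B and C. The part of these values was not tested either.

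Levels were next compared between species within a tissue, in one edgeR fit of the 6 groups with gene model length as an offset. CX3CR1, P2RY12 and TMEM119 have longer models in cattle (3659, 2270 and 2313 exonic bases) than in sheep (1011, 1029 and 873) and goat (1077, 1041 and 855), so their between-species values rest on that correction. In brain, 3 of the 10 genes were called for cattle against sheep (25.9% of all genes), 3 for cattle against goat (23.6%) and 4 for sheep against goat (17.9%). In muscle, 3 were called for cattle against sheep (29.6%), 4 for cattle against goat (34.3%) and 2 for sheep against goat (23.6%). Apart from sheep against goat brain, the members' counts were near the share of all genes called. With library totals alone, 35.0% of the calls for cattle against goat muscle lay on the cattle side, against 49.9% with TMM scaling, and 36.4% of those for sheep against goat muscle on the sheep side, against 55.0% with TMM scaling.

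TMEM119 had a log2 difference of −7.68 ± 0.65 for cattle over sheep brain and −6.91 ± 0.63 for cattle over goat brain (SE, edgeR, adjusted p = 6.89e-07 and 1.03e-06). In muscle TMEM119 held 4, 8 and 9 counts in cattle, 49, 49 and 16 in sheep and 14, 25 and 11 in goat. Its log2 differences there rest on these few counts, so nothing is read from their calls. They were −3.33 for cattle over sheep and −2.98 for cattle over goat (edgeR, adjusted p = 0.00048 and 0.0012). CD163 ran the other way, except that cattle over goat brain was not called (0.72 ± 0.42, SE, edgeR, adjusted p = 0.215). That value ran between −0.51 and 0.99 over the alternatives. The log2 difference of CD163 was 3.39 ± 0.45 for cattle over sheep muscle and 2.25 ± 0.43 for cattle over goat muscle (SE, edgeR, adjusted p = 3.49e-05 and 0.000586), and 2.29 ± 0.45 for cattle over sheep brain (SE, edgeR, adjusted p = 0.00124). Sheep brain CD163 was also below goat brain, at −1.56 ± 0.44 (SE, edgeR, adjusted p = 0.0177), a call lost without sheep brain A or without goat brain C. Without the length offset the cattle over goat muscle value of CD163 was 1.03 and not called, the goat model being 6397 exonic bases long and the cattle model 3420.

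Each C1q chain differed between some of the brains. C1QA was higher in sheep brain than in goat brain by 2.05 ± 0.34 log2 units and lower in cattle brain than in sheep brain, at −2.18 ± 0.34 (SE, edgeR, adjusted p = 0.000403 and 0.000243). C1QB was 1.54 ± 0.31 higher in cattle brain than in goat brain and 1.44 ± 0.31 higher in sheep brain than in goat brain (SE, edgeR, adjusted p = 0.00137 and 0.00307). C1QC was 1.23 ± 0.33 higher in sheep brain than in goat brain (SE, edgeR, adjusted p = 0.0127), which was not called without sheep brain C (0.97) or without goat brain B (1.06). Without the length offset the sheep over goat brain values of C1QA, C1QB and C1QC were 0.62, 0.81 and 0.52, none called. In muscle none of the 3 chains was called between any pair of species by edgeR, at unadjusted p values of 0.138 to 0.721, except that without the length offset C1QA was called for cattle over sheep (1.10) and sheep over goat (−1.61). Their muscle means lay between 7.78 and 9.60 RPKM for C1QA, 15.9 and 22.1 RPKM for C1QB, and 10.5 and 12.8 RPKM for C1QC.

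AIF1 was lower in cattle muscle than in goat muscle by −2.49 ± 0.42 log2 units and lower in sheep muscle than in goat muscle by −2.59 ± 0.42 (SE, edgeR, adjusted p = 0.000182 and 0.000237). In cattle brain AIF1 was lower than in goat brain, at −1.11 ± 0.39 (SE, edgeR, adjusted p = 0.0423), a call that was lost with RLE scaling, without the length offset, and without any one cattle library, any one sheep muscle library, goat brain A or goat brain C. P2RY12 held 1, 5 and 8 counts in cattle muscle, against 18, 13 and 13 in sheep muscle and 27, 18 and 32 in goat muscle, and passed the filter through its brain counts. Its log2 differences in muscle rest on these few counts, so nothing is read from their calls. They were −2.29 ± 0.72 for cattle over sheep and −3.92 ± 0.70 for cattle over goat (SE, edgeR, adjusted p = 0.0203 and 0.000325). The call against sheep was lost with limma-voom, without the length offset, and without cattle muscle A, cattle muscle B or sheep muscle A. TREM2 held 2, 2 and 2 counts in sheep muscle and 19, 7 and 7 counts in goat muscle. It passed the filter through its brain counts, so nothing is read from its call in that comparison (log2 −2.37 ± 0.77, SE, edgeR, adjusted p = 0.0286), which was lost with limma-voom, without any one sheep muscle library or without goat muscle A. CSF1R was called between no pair of species. Its brain log2 differences were 0.07 for cattle over sheep, 0.05 for cattle over goat and −0.02 for sheep over goat, each with an SE of 0.39 (edgeR, unadjusted p between 0.861 and 0.964), and its muscle ones 0.60, 0.99 and 0.39 (unadjusted p between 0.023 and 0.334). Without cattle muscle A the cattle over goat muscle value of CSF1R was 1.27 and called (edgeR, adjusted p = 0.0226, range over the alternatives 0.0226 to 0.253).

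Ordered by mean level over the 6 groups, CSF1R, CX3CR1, P2RY12 and TREM2 had the 3 brains first and the 3 muscles last, with the gap between the lowest brain and the highest muscle group free of overlap. Neighbouring brain groups overlapped for all 4 genes. Neighbouring muscle groups overlapped for CSF1R, CX3CR1 and TREM2 and were separate for P2RY12, though on few counts. For TMEM119 the order was sheep brain, goat brain, sheep muscle, goat muscle, cattle brain and cattle muscle. Its cattle brain and muscle groups rest on few counts and on models of different lengths, so nothing is read from their order. For AIF1 goat muscle stood between sheep brain and cattle brain, overlapping both. C1QA was highest in sheep brain without overlap, and its other 5 groups formed one overlapping run between 6.58 and 9.60 RPKM. C1QB had cattle and sheep brain on top, separate from an overlapping run of cattle muscle, goat brain, sheep muscle and goat muscle. CD163 had cattle muscle on top, then an overlapping run of goat muscle, cattle brain, sheep muscle and goat brain, and sheep brain below all.

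Other genes of the same cells were counted by list in the fit over the 3 species, where the median over all genes was 0.07. In that fit 31.1% of all genes were called higher in brain and 23.3% lower. In cattle alone these shares were 33.9% and 25.3%. Of 12 tissue macrophage genes, 6 were matched and tested, of which 2 were higher in brain and 4 lower, with a median of −1.92. LYVE1, the hyaluronan receptor of perivascular macrophages and lymphatic vessels, had a log2 difference of −5.96 ± 0.47, and CD209, a lectin of macrophages and dendritic cells, −4.26 ± 0.61 (SE, edgeR, adjusted p = 1.39e-09 and 4.82e-06). SIGLEC1, a sialic acid receptor, and VSIG4, a receptor for complement fragments, were higher in brain at 2.03 ± 0.35 and 1.80 ± 0.34 (SE, edgeR, adjusted p = 4.28e-05 and 0.000101). In cattle alone, where 9 of the 12 were tested, 3 were higher (MS4A7, VSIG4 and SIGLEC1) and 5 lower. The largest difference was that of MS4A7, a membrane protein of macrophages, which held 429, 207 and 268 counts in cattle brain, against 3, 2 and 3 in cattle muscle, and its log2 difference was 6.02 ± 0.39 (SE, edgeR, adjusted p = 2.13e-06). MRC1, the mannose receptor, held 52, 13 and 34 counts in cattle brain, against 115, 434 and 142 in cattle muscle, and its log2 difference was −3.50 ± 0.57 (SE, edgeR, adjusted p = 0.000572).

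Of 9 further microglia genes 2 were matched, and OLFML3 was higher in brain (1.12 ± 0.36, SE, edgeR, adjusted p = 0.00913) while ADGRG1, at 0.87, was not called. OLFML3 had a log2 difference of 3.01 in cattle, against 0.24 in sheep and 0.41 in goat. In cattle alone 7 were tested and 6 were higher. SALL1, a transcription factor of microglia, held 1388, 814 and 777 counts in cattle brain, against 2, 1 and 0 in cattle muscle. GPR34, a lysophospholipid receptor, and SELPLG, a selectin ligand, had log2 differences of 3.60 ± 0.53 and 4.03 ± 0.37 in cattle (SE, edgeR, adjusted p = 0.000302 and 1.86e-05). In the same cattle brain libraries TMEM119 held 16 to 19 counts, and the cause of that low value was not tested.

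General myeloid and leukocyte genes, 11 of 14 matched, had 6 higher, 1 lower and a median of 1.14. ITGAM, the integrin chain of complement receptor 3, had a log2 difference of 4.01 ± 0.38, and TYROBP, the adaptor of TREM2, 2.34 ± 0.28 (SE, edgeR, adjusted p = 1.88e-08 and 4.63e-07). SPI1, the transcription factor PU.1, was higher at 1.66 ± 0.25 and LCP1, an actin-bundling protein, was lower at −1.94 ± 0.25 (SE, edgeR, adjusted p = 8.59e-06 and 1.06e-06). PTPRC, the leukocyte antigen CD45, was not called at −0.11 ± 0.29, nor was CD68 at −0.39 ± 0.31 (SE, edgeR, adjusted p = 0.751 and 0.257).

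Of the ligands and partners of the 10 genes, 8 of 9 were matched, with 6 higher, none lower and a median of 1.83. TYROBP, among those higher, is also counted among the general myeloid genes. IL34, a ligand of CSF1R, averaged 58.6 ± 13.3, 47.4 ± 39.0 and 24.8 ± 3.92 RPKM in cattle, sheep and goat brain, against 2.66 ± 0.801, 4.26 ± 1.18 and 4.89 ± 3.53 RPKM in cattle, sheep and goat muscle (SD, n = 3 each). CSF1, the other ligand of CSF1R, averaged 11.5 ± 1.47, 2.02 ± 0.153 and 2.66 ± 0.517 RPKM in the same brains, against 6.503 ± 1.13, 4.53 ± 0.825 and 5.38 ± 2.41 RPKM in the same muscles. IL34 was called higher in brain (3.44 ± 0.38, SE, edgeR, adjusted p = 1.86e-07) and CSF1 was not called (−0.47 ± 0.28, SE, edgeR, adjusted p = 0.14). CSF1 had a log2 difference of 0.92 in cattle, −1.16 in sheep and −0.98 in goat. APOE, a lipoprotein bound by TREM2, was higher at 5.35 ± 0.34 and HP, the haptoglobin whose haemoglobin complex CD163 takes up, at 2.40 ± 0.40 (SE, edgeR, adjusted p = 6.69e-11 and 2.63e-05). CX3CL1, the ligand of CX3CR1, was measured in cattle alone, where its log2 difference was 5.01 ± 0.31 (SE, edgeR, adjusted p = 1.83e-06).

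The other classical complement genes held calls in both directions. Of 10 tested, 3 were higher and 4 lower, with a median of −0.75, near the 31.1% and 23.3% of all genes. ITGAM and ITGB2, among those higher, are also counted among the general myeloid genes. C3, the central complement component, was higher at 3.25 ± 0.31 and CD55, which breaks down the C3 convertase, lower at −1.97 ± 0.33 (SE, edgeR, adjusted p = 1.78e-08 and 2.87e-05). C1R and C1S, the proteases that join C1q in the C1 complex, were lower at −1.03 ± 0.45 and −1.16 ± 0.39 over the 3 species (SE, edgeR, adjusted p = 0.0463 and 0.0135), with values of −3.06 and −2.89 in cattle against 0.27 and −0.34 in sheep.

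Markers of other cells that either tissue could hold were read beside these results. Of 10 blood monocyte and neutrophil genes, 6 were matched and 4 tested, with none higher and 3 lower, and the summed level of the 6 was 2.14 to 6.44 RPKM in the brain libraries and 3.10 to 16.0 RPKM in the muscle libraries, MPO being at 0 in cattle and goat muscle. T and B lymphocyte genes, 10 of 10 matched, had 2 higher and 5 lower, and summed to 5.16 to 23.3 RPKM in the brain libraries and 2.11 to 38.3 RPKM in the muscle libraries. Endothelial genes, 8 of 8, had 1 higher and 6 lower, and fibroblast genes, 5 of 6, had 1 higher and 4 lower. Their part in the results on the 10 genes was not tested.

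Across the 9 brain libraries, the 5 named genes of 10106 whose log2(RPKM + 1) correlated best with CSF1R were CSF2RB (r = 0.935), LYN (0.861), CCNJL (0.845), FOXK1 (0.838) and HNRNPUL1 (0.835). Among the members, CX3CR1 ranked 55th (0.725), P2RY12 227th (0.599) and TREM2 378th (0.557), while r was 0.019 for AIF1, 0.067 for C1QA and 0.148 for TMEM119. These values pool species whose levels differ, TMEM119 being near 0.2 RPKM in the cattle brains, and within goat brain AIF1, C1QA and TMEM119 were lowest in library B and highest in library A, as CSF1R was. Across the 9 muscle libraries the 5 genes nearest to CD163 were UTP3, SLC43A2, GYG2, B3GAT1 and CHRD, with r of 0.981 to 0.983. The points share species and library depth, and for CD163 the 3 cattle libraries lie apart from the other 6. These coefficients are a description over 9 libraries and were not tested.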

How the data were processed

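The authors deposited 1 table of raw counts per library, with the exons, strand and exonic length of each gene model per the file headers. Per the submitters' processing notes, Trimmomatic 0.39, STAR 2.7.6 and featureCounts were used, and ARS-UCD1.2, a cattle build, is the only build named, for all 3 species. The sheep and goat tables list gene models and coordinates of their own, with builds not given in the sources used here.

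Cattle models were named by overlap with RefSeq genes of ARS-UCD2.0 (at least 0.5 of the union), or by the largest overlap for 9 listed genes, TMEM119, TREM2 and AIF1 among them. Partners were matched by exon lengths, strand and order, those of C1QC by order and strand alone. CX3CR1, P2RY12, TMEM119 and AIF1 were placed by hand by order and strand. Of the 10 members, CSF1R, TREM2 and CD163 were matched in the first, strictest step.

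Tests used edgeR 4.0.16 (quasi-likelihood, robust, TMM scaling, filterByExpr) in R 4.3.3, within each species on all its genes and over the 3 species on matched genes with length offsets, Benjamini-Hochberg adjusted over all genes tested. SE is the log2 difference divided by the root of F. Alternatives used DESeq2 1.42.0, limma 3.58.1, other scalings, filters, matches and left-out libraries. The scripts were tested on simulated data. Counting intervals are exact (Clopper-Pearson). Named genes of each list were those of lowest adjusted p, those called against the list's median, and some that were not called. In the cattle-only counts, MRC1, MS4A7, SALL1, GPR34, SELPLG and CX3CL1 were named after their values were seen. The members and lists were chosen with earlier results of these data known. Reads without molecular identifiers are not independent molecules, so intervals cover counting error only.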

Additional observations from a re-analysis of the deposited data

Results flagged for a closer look

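For 4 of the 10 genes the brain over muscle difference itself differed between the species in edgeR's joint test of the species by tissue terms, with Benjamini-Hochberg adjustment over all genes tested, a call made for 25.5% of all genes. C1QA had an adjusted p of 0.00251, with log2 differences of −0.45 in cattle, 1.94 in sheep and −0.27 in goat. TMEM119 had an adjusted p of 0.00333, with 0.66 in cattle, 4.89 in sheep and 4.49 in goat. AIF1 had an adjusted p of 0.0128, with 1.87 in cattle, 2.85 in sheep and 0.43 in goat, and P2RY12 had an adjusted p of 0.0332, with 7.63, 6.06 and 4.38 in the same order. The P2RY12 call was lost in 9 of 26 alternatives, at adjusted p up to 0.137. It also rests on few muscle counts, so no species difference in fold is read from it.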

How the results depend on the processing

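The single values of the 10 genes, log2 differences and adjusted p of the joint test alike, were recomputed under each alternative. Of these, 2381 kept their side of the threshold, 58 newly passed it, 45 no longer passed it, and no log2 difference changed sign while called. Values that were not called could change sign, as did C1QA in cattle, at −0.45 and up to 0.22 over the alternatives. In sheep against goat muscle 2 genes were called, and 4 with RLE scaling, library totals alone, DESeq2 or no length offset, 1 with limma-voom, and 1 to 4 when single libraries were left out. Cattle against sheep brain had 3 calls, 5 without the length offset and 3 to 5 on leaving out libraries, and sheep against goat brain had 4, and 1 without the offset. Cattle against goat muscle had 4, and 6 with library totals alone or DESeq2. Matches of the first step alone hold only CSF1R, TREM2 and CD163, and left 3 calls over the 3 species (9 of 10 otherwise), 0 for the dependence on species (4 otherwise), 1, 0 and 1 in brain for cattle against sheep, cattle against goat and sheep against goat, and 1 and 1 in muscle for cattle against sheep and cattle against goat; fewer genes being tested sets these counts. With sheep brain C and goat muscle C left out together, a choice made after seeing the data, 7 genes were called in goat, 10 in sheep and 9 over the 3 species. Brain and muscle libraries of the same letter had correlations of deviations between −0.214 and 0.181. Such values between unlike tissues cannot show whether the letters pair the samples. Fitted with the letter as a replicate block, 7 genes in cattle, 10 in sheep, 6 in goat and 9 over the 3 species were called, as without it. Muscle values of TREM2, P2RY12 and CX3CR1 and both tissues' values of cattle TMEM119 rest on few counts, and depth limits them.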
